A study of Mus musculus with 45 samples.

Results

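The 7 genes described here are the mouse genes Lin28a, Lin28b, Hmga1, Hmga2, Igf2bp1, Igf2bp2 and Igf2bp3, out of 35675 genes whose transcripts were counted by bulk RNA sequencing. They were chosen by name, with earlier results of these data known, as a reading of embryonic against postnatal state. All 7 had enough reads to be among the 17325 genes tested. LIN28A and LIN28B are RNA-binding proteins that block the maturation of let-7 microRNAs, which build up as tissues leave the embryonic state. Let-7 in turn represses HMGA2, the IGF2BP proteins and LIN28 itself. HMGA1 and HMGA2 are small chromatin proteins that bind AT-rich DNA, and HMGA2 is known for its high level in embryonic mesenchyme and its role in proliferating muscle progenitors. IGF2BP1, IGF2BP2 and IGF2BP3 bind mRNAs such as that of the growth factor IGF2 and affect their stability and translation, and IGF2BP2 remains expressed in adult tissues whereas the other members are mostly fetal.

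The libraries fell into 15 groups of 3, and every group had the genotype Tg:Pax7-nGFP/C57BL6;DBA2, in which a nuclear GFP reports Pax7, the transcription factor that marks the stem cells of muscle. Mouse embryonic fibroblasts (MEFs) were untreated. MEFs made to express MyoD, a transcription factor that turns fibroblasts into muscle, were taken after 2, 4, 6, 8 and 10 days of doxycycline (Dox), and their cell type label is myotubes. A parallel series received Dox with the small molecules labelled F/R/C for the same numbers of days, and its label is muscle fibers and progenitor cells. Induced myogenic progenitor cells (iMPCs), with an embryo as source, had been kept in F/R/C medium after 13 days of Dox with F/R/C and were profiled whole (bulk iMPCs) or as Pax7-GFP-positive cells purified by FACS (Pax7+ iMPCs). Myoblasts from skeletal muscle were profiled whole and untreated (bulk myoblasts) or as FACS-purified Pax7-GFP-positive cells (Pax7+ myoblasts). The labels do not give the age of the animals behind the myoblasts, and they do not say whether replicates came from separate animals or cultures, so the p-values measure only the spread between these libraries, which may be technical in part.

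Depth per library lay between 15.6 and 36.3 M reads (median 22.1 M). Summed levels of 12 genes of differentiated muscle, in CPM (reads per M reads, scaled), were 55.1 to 173 CPM in MEFs and at least 10245 CPM in every other unsorted library except the third bulk myoblast library, at 1164.5 CPM. Summed levels of 12 fibroblast genes were 20178 to 25290 CPM in MEFs, 13998 to 30516 CPM after 10 days of MyoD alone, 1447 to 5468 CPM after 10 days of MyoD with F/R/C and 2882 to 4664 CPM in bulk iMPCs. Defining markers of pluripotent cells stayed low, with a sum over 8 genes of at most 29.5 CPM. In MEFs and the time course the 11 libraries numbered 3 held Y-linked transcripts at 146 to 180.0 CPM and Xist at no more than 0.414 CPM, and the 22 libraries numbered 1 and 2 held Xist at 262 to 677 CPM and Y-linked transcripts at no more than 3.12 CPM. The replicates of these groups thus did not all come from 1 source of cells. In these whole-culture libraries fewer cells of a type and less RNA per cell cannot be told apart.

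The sequence sought in the 7 genes was the match to the let-7 seed, bases 2 to 8 of the microRNA. The seed pairs with its reverse complement in a 3′ UTR. In RefSeq (GRCm38.p6), 12 of the 13 mature let-7 and miR-98 entries share 1 seed, in capitals below, and let-7j differs in its last seed base.
let-7a-5p: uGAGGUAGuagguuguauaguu
let-7c-5p: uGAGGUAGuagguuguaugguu
let-7g-5p: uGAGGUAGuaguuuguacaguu
miR-98-5p: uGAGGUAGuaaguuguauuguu
let-7j: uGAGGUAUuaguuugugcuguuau
Mature microRNAs were not measured in these poly-A libraries.

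The match to the shared seed, CTACCTC on the strand of the mRNA, was sought in the longest 3′ UTR of each gene in GENCODE release M21 (GRCm38). Overlapping matches were allowed, and the other strand was not counted because pairing needs the mRNA strand. All 7 genes held at least 1 match, against 1585 of 14880 genes with a 3′ UTR (10.7%). Lin28b, Hmga2 and Igf2bp1 held 4 each, Lin28a held 2, and Hmga1, Igf2bp2 and Igf2bp3 held 1 each. Matches numbered 3 or more in 28 genes in all (0.188%). Longer 3′ UTRs hold more matches by chance. Among genes with a 3′ UTR of like length, 0.15% of 2026 had as many as Hmga2, 0.34% of 1175 as many as Lin28b, 0.37% of 535 as many as Igf2bp1 and 2.32% of 2154 as many as Lin28a. At least 1 match was held by 8.9%, 12.4% and 13.9% of the genes of like length for Hmga1, Igf2bp2 and Igf2bp3. The genes were chosen by name, with repression by let-7 already known for HMGA2, the IGF2BP proteins and LIN28. These shares therefore describe the sequences and are no test.

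Windows of 30 bases are shown for all 4 Hmga2 matches, since Hmga2 changed most, and for the match nearest the stop codon in the other genes. They are read 5′ to 3′ on the mRNA strand with the match in capitals.
Lin28a (chr4:134005179-134005208, minus strand): cagcctgttgaaCTACCTCatttttgccga
Lin28b (chr10:45381012-45381041, minus strand): cgggcgggaagtCTACCTCatgcaagcaca
Hmga1 (chr17:27563280-27563309, plus strand): tctgttcacaaaCTACCTCtggacggttgt
Hmga2, match 1 (chr10:120364214-120364243, minus strand): gacattcaatttCTACCTCagcatcagttg
Hmga2, match 2 (chr10:120362977-120363006, minus strand): cactcctcaataCTACCTCtgaatgctaca
Hmga2, match 3 (chr10:120362539-120362568, minus strand): atttgcaaggaaCTACCTCcacacttccaa
Hmga2, match 4 (chr10:120361681-120361710, minus strand): caaaacacactaCTACCTCttaagtcccag
Igf2bp1 (chr11:95961768-95961797, minus strand): gtgcgaagtaaaCTACCTCaaggtgtgaag
Igf2bp2 (chr16:22059463-22059492, minus strand): cacaaataaaagCTACCTCaggtgtttttt
Igf2bp3 (chr6:49086777-49086806, minus strand): atttttactcaaCTACCTCaggtattcagt
The windows of Lin28a, Lin28b, Igf2bp1, Igf2bp2 and Igf2bp3 and the first of Hmga2 have an A after the match, a base that favours let-7 sites, whereas the Hmga1 window and the other 3 of Hmga2 do not. The first match lay 36 bases after the stop codon in Lin28b, 58 in Hmga2, 548 in Igf2bp3, 801 in Hmga1, 909 in Lin28a, 1313 in Igf2bp2 and 1715 in Igf2bp1. Transcripts whose annotated exons hold these matches took from 89.7% of a gene's reads (Lin28b) to 99.8% (Hmga2). Longer transcripts give more reads and the 3′ ends in use were not measured, so these are not shares of mRNAs. A match is a description of sequence and not a measured let-7 site.

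**Figure D1:**
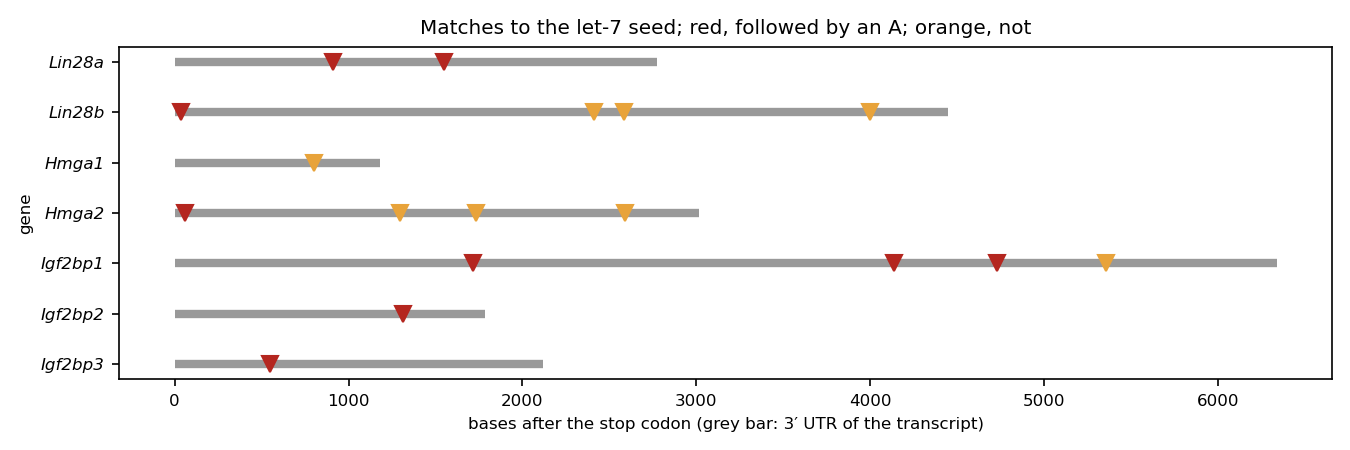
Position of each let-7 seed match along the 3′ UTR of the 7 genes. The x axis gives bases after the stop codon, grey bars the 3′ UTR of the transcript used, and triangles the matches, red where an A follows and orange where not; Lin28b, Hmga2 and Igf2bp1 have 4 each and Hmga1, Igf2bp2 and Igf2bp3 have 1.

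Across the 15 groups the 7 genes covered very different ranges. Hmga2 (chr10:120361275-120476469, minus strand) ranged most among the well-counted genes, with 81.3-fold between the highest and lowest group means on the CPM scale. The ratio was 35.4 for Igf2bp1 (chr11:95957163-96005940, minus strand), 10.9 for Hmga1 (chr17:27556497-27563674, plus strand), 6.86 for Igf2bp3 (chr6:49085223-49214957, minus strand) and 1.98 for Igf2bp2 (chr16:22059009-22163299, minus strand). Lin28a (chr4:134003330-134018841, minus strand) and Lin28b (chr10:45376620-45486395, minus strand) were near the limit of detection throughout, with 403 and 700 reads in all 45 libraries together. All 7 are protein-coding genes, and the coordinates span the whole gene in GRCm38.

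**Figure D2:**
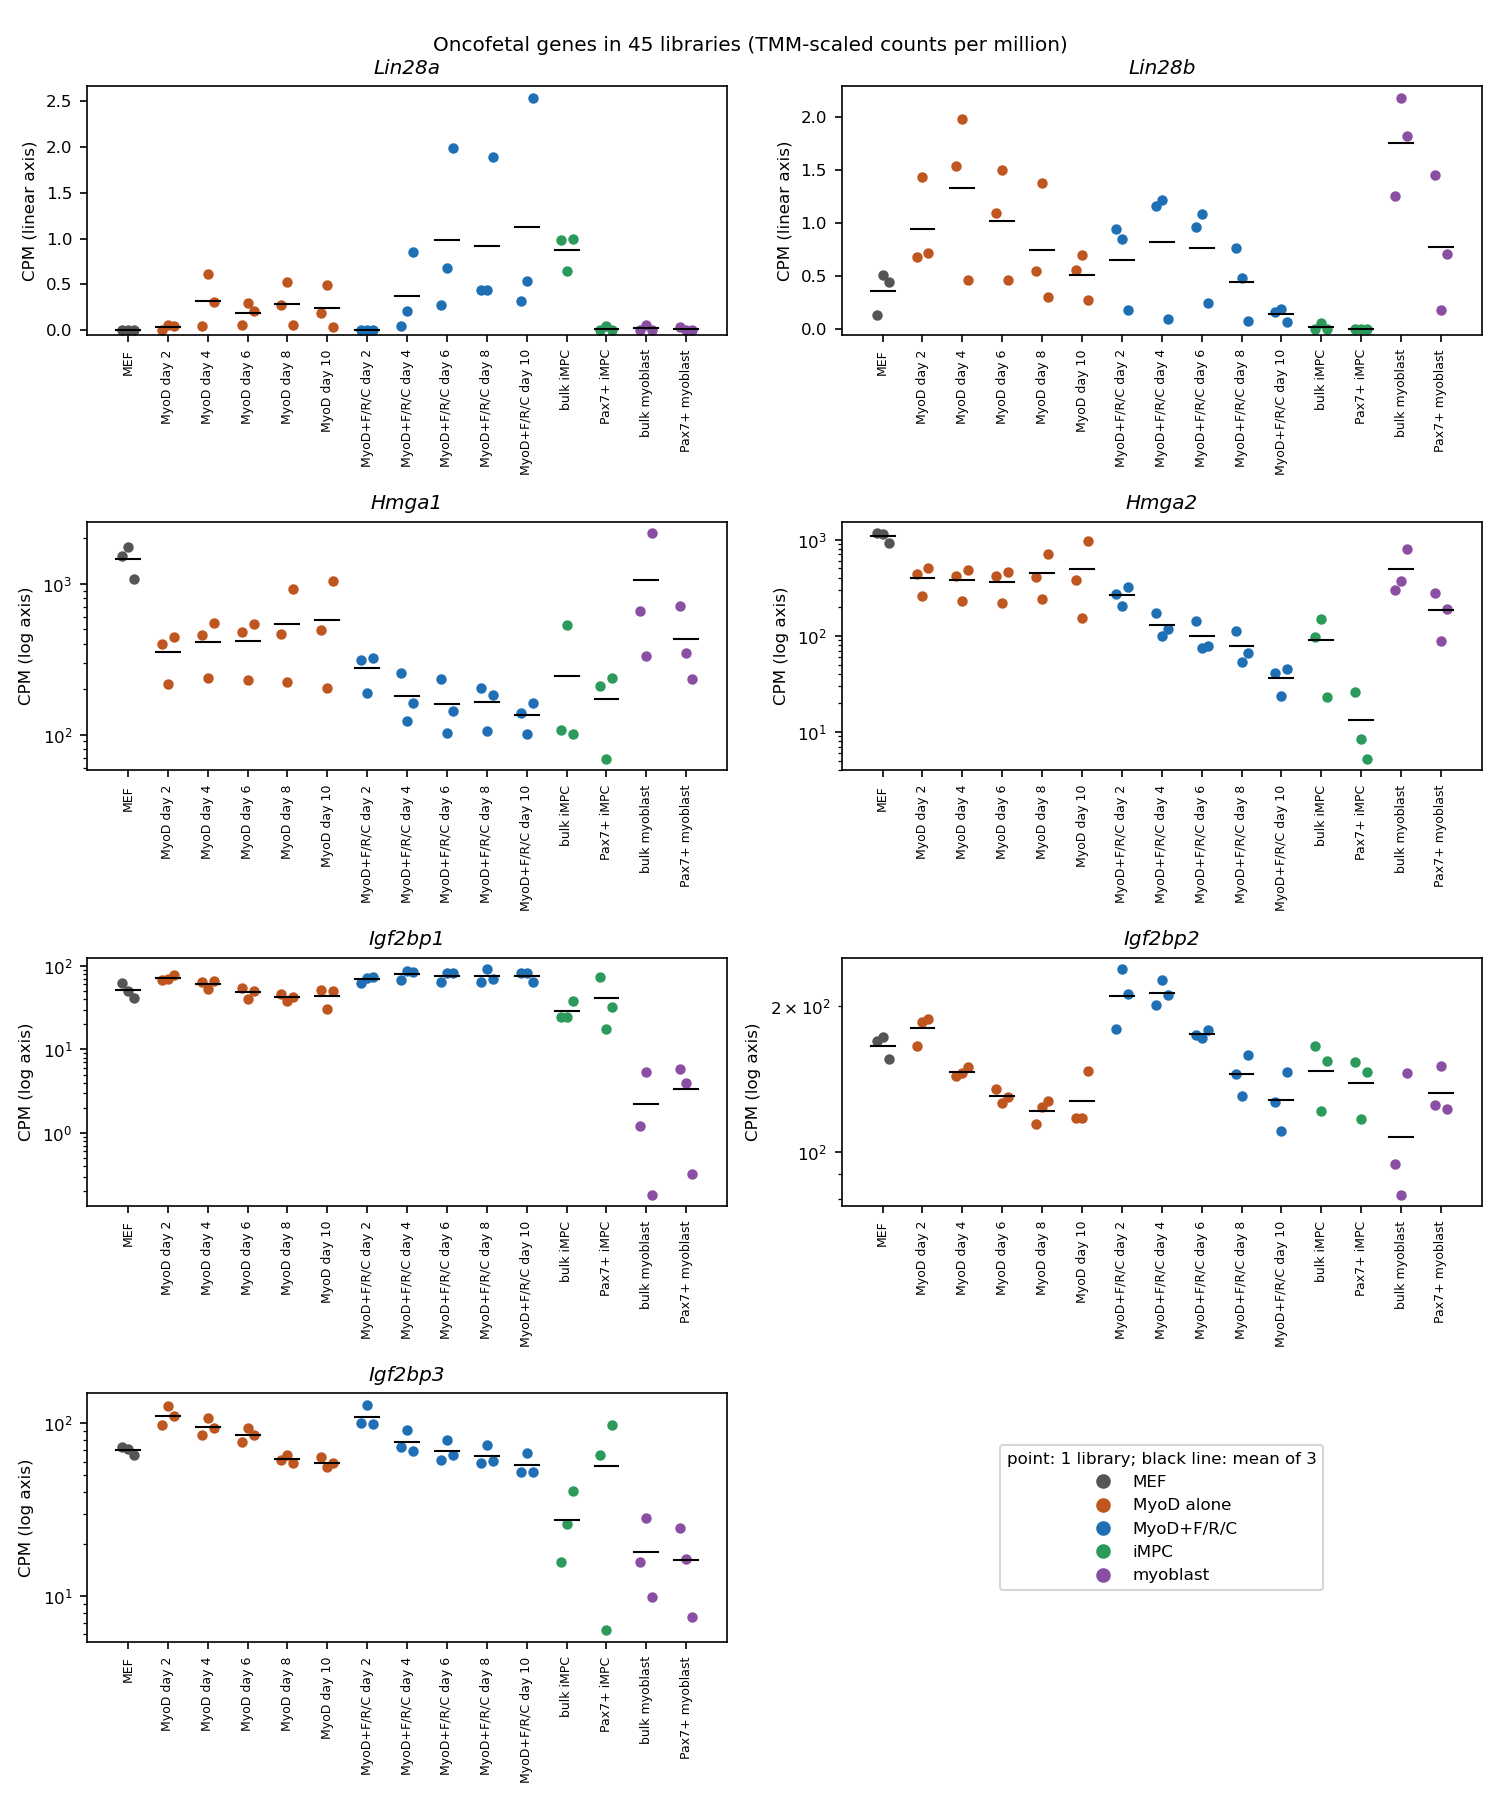
Level of each of the 7 genes in every library, by group, in CPM. Each point is 1 library and each black line the mean of 3; the axis is linear for Lin28a and Lin28b and logarithmic for the others. The group means of Hmga1 and Hmga2 are highest in MEFs, Igf2bp1 is lowest in the 6 myoblast libraries, and Igf2bp2 stays between 81.7 and 239 CPM.

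Lin28a, whose protein recruits uridylyl transferases to the let-7 precursor, was listed at 0 reads in all 3 MEF libraries and appeared during reprogramming. It had 0, 1 and 1 reads after 2 days of MyoD alone and 0 in all libraries after 2 days with F/R/C. With MyoD alone, days 4, 6, 8 and 10 gave 1, 12 and 6, then 1, 6 and 4, then 6, 10 and 1, then 4, 10 and 1 reads. With F/R/C the same days gave 1, 4 and 18, then 6, 13 and 40, then 8, 10 and 48, then 8, 11 and 72 reads. On all 4 of these days replicate 3 was the highest with F/R/C and replicate 2 the highest with MyoD alone. Bulk iMPCs held 36, 23 and 37 reads, or 0.876 ± 0.197 CPM (SD, n = 3), while Pax7+ iMPCs held 0, 1 and 0, bulk myoblasts 0, 2 and 0, and Pax7+ myoblasts 1, 0 and 0. The iMPC culture as a whole therefore had Lin28a reads in every library, and the other reference groups had at most 2 in any.

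Against MEFs, Lin28a was at least 24.6-fold higher after 10 days with F/R/C (edgeR's quasi-likelihood test with Benjamini-Hochberg adjustment, adjusted p = 4.55e-04) and at least 17.6-fold higher in bulk iMPCs (adjusted p = 8e-04). These bounds pool the reads of a group and take 3 reads over the MEF group as the floor, 0.0499 CPM, and the floor and the intervals below cover counting error only. Without replicate 3, which held 72 of the 91 reads, the bound with F/R/C was at least 8.32-fold (adjusted p = 0.00564). Without 1 of the MEF libraries, over which the floor is set, the bounds were 15.3 to 18.1 with F/R/C and 10.9 to 13.0 in bulk iMPCs. After 10 days of MyoD alone the bound was at least 4.26-fold (adjusted p = 0.0377). That last call was lost without the filter on low counts (0.0557), without any 1 of the MEF libraries (0.0747 to 0.0969) and without replicate 2 of MyoD day 10 (at least 1.99-fold, 0.197). Bulk iMPCs were called higher than bulk myoblasts (adjusted p = 0.00286), 96 reads against 2, a ratio of 39.4 with a 95% exact counting interval of 10.6 to 330.0. Pax7+ iMPCs were called lower than bulk iMPCs (adjusted p = 0.00198), with 1 read against 96 and a ratio of 59.1 between them (10.3 to 2360.0). Without the single library that held the reads of the lower group, replicate 2 in both cases, the bounds were at least 14.6-fold and at least 12.4-fold. Sorted libraries were quantified with another fragment length than bulk ones, so the effects of the sort and of that length cannot be told apart. The effect of F/R/C on day 10 was a log2 difference of 2.29 with adjusted p = 0.0656, and it passed without replicate 2 of MyoD alone (3.41, 0.0317) or replicate 1 with F/R/C (2.73, 0.0415). No level of Lin28a in any library exceeded 2.54 CPM.

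Lin28b, whose protein binds the let-7 primary transcript, ran the other way between the cell sources. MEFs held 3, 11 and 7 reads, bulk myoblasts 28, 87 and 50, and Pax7+ myoblasts 41, 5 and 13. Bulk iMPCs held 0, 2 and 0 reads and Pax7+ iMPCs 0 in all 3. All bulk myoblast libraries lay above all MEF libraries, and all iMPC libraries lay below both. The mean level was 1.75 ± 0.465 CPM in bulk myoblasts, 0.776 ± 0.638 in Pax7+ myoblasts and 0.362 ± 0.202 in MEFs (SD, n = 3). Bulk myoblasts were higher than MEFs by 2.28 on the log2 scale (adjusted p = 0.0272), a call lost without MEF replicate 1 (1.86, adjusted p = 0.113) or bulk myoblast replicate 2 (2.09, 0.0683).

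Bulk iMPCs were called lower in Lin28b than MEFs (adjusted p = 0.00493), with 21 MEF reads against 2 and a ratio of 19.1 (95% exact counting interval 4.67 to 168). They were also called lower than bulk myoblasts (adjusted p = 8.31e-05), with 165 reads against 2 and a ratio of 100.0 (27.4 to 836). Without bulk iMPC replicate 2, which held both reads, MEFs were at least 8.59-fold and bulk myoblasts at least 45.2-fold higher. Pax7+ myoblasts were at least 17.6-fold higher than Pax7+ iMPCs (adjusted p = 2.69e-04), and at least 8.63-fold without Pax7+ myoblast replicate 1, which held 41 of the 59 reads (0.00235). Without 1 of the Pax7+ iMPC libraries the bound was 11.1 to 12.5. Along the time course Lin28b was highest on day 4 of MyoD alone, at 34, 39 and 9 reads, and it stood at 4, 4 and 2 reads on day 10 with F/R/C, below all 3 libraries of MyoD alone on that day (12, 14 and 8). The log2 difference on day 10 was -1.82 with adjusted p = 0.118. Replicate 3 was the lowest on all 5 days with F/R/C and on 4 of 5 with MyoD alone.

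Hmga2 fell along the F/R/C route, and its highest group mean was in MEFs. The MEF libraries stood at 1168, 1144 and 918 CPM. After 2 days of Dox the level was 433, 257 and 507 CPM with MyoD alone and 274, 201 and 323 CPM with F/R/C, all below MEFs. The log2 fold change against MEFs was -2.02 ± 0.61 (SE) with F/R/C (adjusted p = 0.0106, but 0.0567 without replicate 2 with F/R/C). With MyoD alone it was -1.43 ± 0.60 (adjusted p = 0.0592), and with replicate number as a block 0.0238, with DESeq2 0.0327 and with these groups fitted alone 0.00546.

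From day 2 on the routes parted. With MyoD alone Hmga2 stood at 415, 229 and 484 CPM on day 4, at 415, 221 and 459.9 on day 6, at 412, 240.3 and 709 on day 8 and at 380.1, 153 and 954 on day 10. With F/R/C it stood at 173, 98.1 and 118 CPM on day 4, at 143, 73.7 and 78.8 on day 6, at 112, 53.8 and 65.8 on day 8 and at 41.3, 23.4 and 45.1 on day 10. All F/R/C libraries lay below all libraries of MyoD alone on each of these 4 days. The group mean with F/R/C went from 24.7% of the MEF mean on day 2 to 3.4% on day 10, while with MyoD alone it stood at 37.1% and 46%. The latter rested on replicate 3, without which MyoD alone stood at 32% on day 2 and 24.8% on day 10. Replicate 2 was the lowest of 3 on all 5 days of both routes.

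The effect of F/R/C on Hmga2 was -0.58 on day 2 (adjusted p = 0.614), -1.54 on day 4 (0.0614), -1.89 on day 6 (0.0204), -2.56 on day 8 (0.00217) and -3.76 ± 0.66 (SE) on day 10 (4.78e-05), as log2 fold changes by edgeR's quasi-likelihood test. The fit behind these values did not use the replicate number. Same-numbered libraries deviated together on days 2, 4 and 6, and with the replicate number as a block day 4 was -1.51 with adjusted p = 0.0369. The day 6 call was lost when either replicate 1 or 3 of MyoD alone or replicate 2 or 3 with F/R/C was left out (adjusted p from 0.0669 to 0.0976). Averaged over the 5 days the effect was -2.06 ± 0.27 (adjusted p = 9.42e-08). That average takes libraries of different days as independent, although replicate 2 was the lowest on all 5 days of both routes. Its SE and p thus may not reflect the spread between sources of cells. Without MyoD day 10 replicate 3 the day 10 effect was -2.86 (7.83e-04). The effect on day 10 was larger than that on day 2 by -3.17 ± 0.85 (adjusted p = 0.0209). That difference did not pass without MyoD day 2 replicate 2 (-2.90, 0.0671), MyoD day 10 replicate 3 (-2.28, 0.0959) or F/R/C day 10 replicate 2 (-2.94, 0.0759).

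Replicate 3 of MyoD alone bears on these values, since on day 10 it held 954 CPM of Hmga2, the highest library outside MEFs and above the lowest MEF library. It also had the lowest sum of differentiated muscle genes on that day, 10245 CPM against 16477 and 36197 in replicates 1 and 2, and its fibroblast sum, 20721 CPM, lay between theirs (30516 and 13998). The part of these cells in the Hmga2 level was not tested. Day 10 of MyoD alone against MEFs gave a log2 fold change of -1.12 (adjusted p = 0.154), and -2.01 (0.0202) without that library. With F/R/C, day 10 against MEFs gave -4.88 ± 0.69 (adjusted p = 7.78e-07). The fibroblast sum after 10 days with F/R/C, given above, was also below that of every MEF library, and its part in the fall of Hmga2 was not tested.

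**Figure D3:**
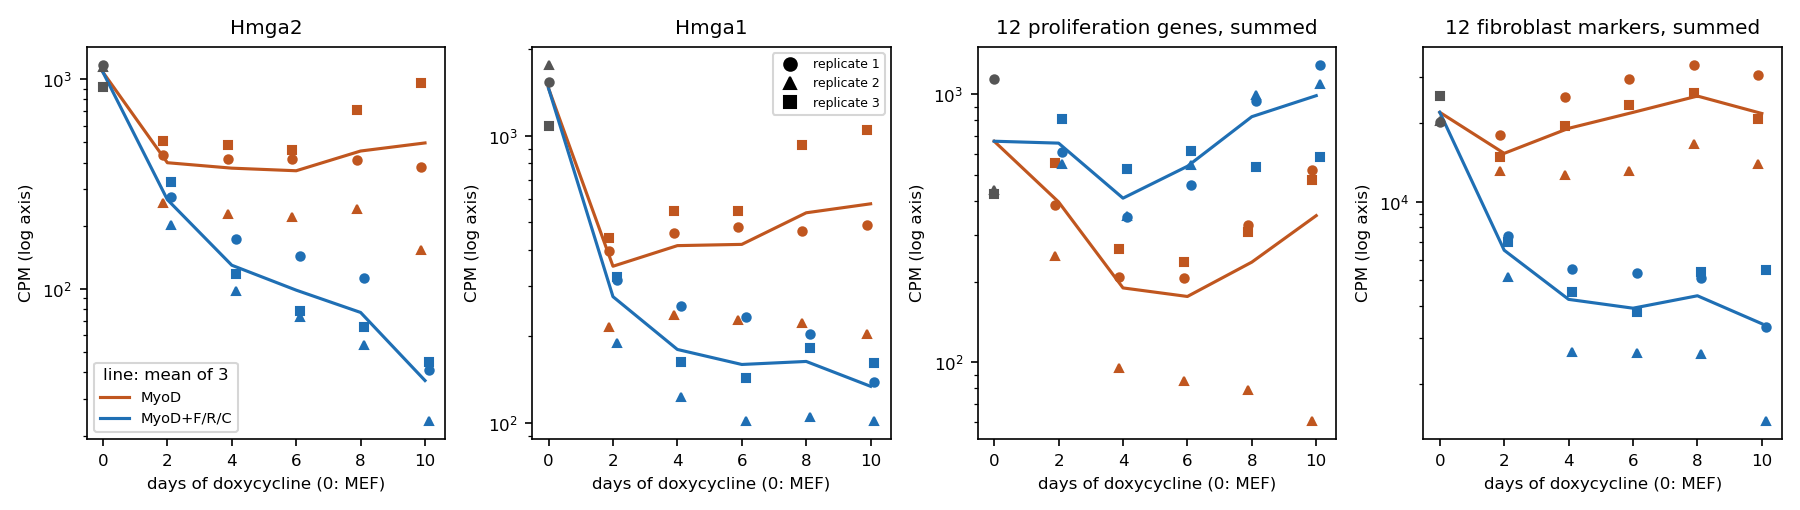
Levels over days of Dox of Hmga2, Hmga1 and the sums of 12 proliferation genes and 12 fibroblast markers, in CPM on log axes, with MEFs at day 0. Points are single libraries, shaped by replicate, and lines join the means of 3, in orange for MyoD alone and blue for MyoD with F/R/C; from day 4 on, every Hmga2 point with F/R/C lies below every point with MyoD alone.

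In the reference cells Hmga2 separated iMPCs from myoblasts. Bulk iMPCs stood at 97.8, 148 and 22.9 CPM and bulk myoblasts at 296, 372 and 805 CPM, with no overlap. Pax7+ iMPCs stood at 26.0, 8.52 and 5.22 CPM and Pax7+ myoblasts at 276, 88.4 and 191 CPM, again with no overlap. The log2 fold change was -2.45 ± 0.62 between the bulk cells (adjusted p = 0.00271, and 0.0822 when only these groups were fitted) and -3.80 ± 0.66 between the sorted cells (adjusted p = 2.02e-05). Without Pax7+ iMPC replicate 1 the latter was -4.75 (1.25e-05). The Pax7+ iMPC mean, 13.2 CPM, was 1.23% of the MEF mean and the lowest of the 15 groups. Bulk iMPCs against MEFs gave a log2 fold change of -3.59 (adjusted p = 2.71e-05). Bulk myoblasts did not pass against MEFs (-1.13, adjusted p = 0.119), although all 3 lay lower, and they did without replicate 3 (-1.69, 0.0421). That bulk myoblast library again had the highest Hmga2 and the lowest sum of differentiated muscle genes, 1164.5 CPM against 33379 and 19262.

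Hmga2 also differed between sorted and bulk iMPCs. Pax7+ iMPCs were lower than bulk iMPCs by a log2 fold change of -2.76 ± 0.63 (adjusted p = 6.1e-04), although the lowest bulk library, 22.9 CPM, lay under the highest sorted one, 26.0 CPM. Without Pax7+ iMPC replicate 1, that highest sorted library, it was -3.70 (1.69e-04). The sum of differentiated muscle genes was 1414 to 1948 CPM in Pax7+ iMPCs and 22473 to 29255 CPM in bulk iMPCs. The sorted libraries were quantified with another fragment setting (a fragment length of 180.03 against 152.81 bases, from the effective lengths), so the effects of the sort and of that setting cannot be told apart. The same holds for every other gene compared between sorted and bulk cells. In the order of group means from MEFs down, the only neighbours of Hmga2 whose libraries did not overlap were days 8 and 10 with F/R/C.

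Hmga1, a chromatin protein of most dividing cells, also had its highest group mean in MEFs and was lower on day 2 of both routes. MEFs stood at 1539.6, 1762 and 1076 CPM. Day 2 was 397, 216 and 440.3 CPM with MyoD alone and 314, 190.0 and 321 CPM with F/R/C, all below MEFs. The log2 fold changes against MEFs were -2.06 ± 0.66 (adjusted p = 0.0153, but 0.0804 without MyoD day 2 replicate 2) and -2.41 ± 0.67 (adjusted p = 0.00596). By day 10 Hmga1 stood at 490.2, 204 and 1042 CPM with MyoD alone and at 139, 101 and 162 CPM with F/R/C. The latter was -3.44 ± 0.70 against MEFs (adjusted p = 1.3e-04). The former was -1.33 (adjusted p = 0.118), and passed without replicate 3 (-2.07, 0.0331) or with replicate number as a block (-1.60, 0.0376).

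The effect of F/R/C on Hmga1 averaged over the 5 days was a log2 fold change of -1.35 ± 0.29 (adjusted p = 1.59e-04). As for Hmga2, this average takes libraries of different days as independent. The effect passed on day 8 (-1.72, adjusted p = 0.0424) and on day 10 (-2.11, 0.0116). The day 8 call was lost in 5 of 6 fits that left out 1 library, with the smallest change without replicate 3 of MyoD alone (-1.08, 0.252), and also with no filter on low counts (0.0703) or with these groups alone (0.0501). The day 10 call was lost without replicate 3 of MyoD alone (-1.37, 0.116) or replicate 2 with F/R/C (-1.94, 0.0556). Replicate 3 of MyoD alone was the highest on all 5 days and replicate 2 the lowest, as for Hmga2.

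In the reference cells Hmga1 was 108, 530.3 and 100.4 CPM in bulk iMPCs and 659, 331 and 2169 CPM in bulk myoblasts. The groups overlapped, and the called difference of -2.10 on the log2 scale (adjusted p = 0.0147) rested on single libraries. It was -1.01 (0.272) without bulk myoblast replicate 3, -1.73 (0.0849) without bulk iMPC replicate 1, -1.72 (0.0843) without bulk iMPC replicate 3, -3.34 (0.00125) without bulk iMPC replicate 2, and had adjusted p = 0.195 when only these groups were fitted. Pax7+ iMPCs stood at 209, 68.9 and 239 CPM and Pax7+ myoblasts at 707, 349 and 235 CPM, with a log2 fold change of -1.32 (adjusted p = 0.0934) that passed with the replicate number as a block (-1.47, 0.0384). Deviations of same-numbered sorted libraries had a mean r of 0.0423 (lowest pair -0.0406), so the number showed no pairing of these cells. Bulk iMPCs were below all MEF libraries (-2.57 ± 0.68, adjusted p = 0.00186), and by -3.81 (1.35e-04) without bulk iMPC replicate 2, the highest of them. Reads of Hmga1 can be divided with copies elsewhere in the genome, of which the gene named Hmga1b took 242 reads over all libraries, and adding the copies to Hmga1 changed no call.

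Igf2bp1, an mRNA-binding protein found mostly in fetal tissue, separated MEFs and the cells made from them from myoblasts without overlap. MEFs stood at 62.9, 50.7 and 41.5 CPM, bulk iMPCs at 24.6, 24.2 and 38.2 CPM and Pax7+ iMPCs at 72.8, 17.5 and 32.1 CPM. Bulk myoblasts stood at 1.21, 5.33 and 0.182 CPM and Pax7+ myoblasts at 5.89, 3.92 and 0.326 CPM. The 39 libraries derived from MEFs ranged from 17.5 to 92.4 CPM and the 6 myoblast libraries from 0.182 to 5.89 CPM, so no myoblast library reached the lowest MEF-derived one. Replicate 3 was the lowest in both myoblast groups, with 5 and 6 reads.

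Igf2bp1 was lower in bulk myoblasts than in MEFs by a log2 fold change of -4.47 ± 0.63 (adjusted p = 8.96e-07), and by -6.26 (4.6e-08) without bulk myoblast replicate 2. Bulk iMPCs were higher than bulk myoblasts by 3.64 ± 0.61 (adjusted p = 3.44e-05, and 0.074 when only these groups were fitted) and Pax7+ iMPCs were higher than Pax7+ myoblasts by 3.56 ± 0.60 (adjusted p = 1.46e-05). The former was 5.43 (4.91e-07) without bulk myoblast replicate 2. The latter was 2.84 (2.46e-04) without Pax7+ iMPC replicate 1 and 4.20 (2.35e-05) without Pax7+ myoblast replicate 1. Bulk iMPCs did not pass against MEFs (-0.83, adjusted p = 0.194). Pax7+ myoblasts did not pass against bulk myoblasts, except without bulk myoblast replicate 2 (2.36, adjusted p = 0.0119).

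Along the time course Igf2bp1 stayed in a narrow range that the routes divided. With MyoD alone it stood at 66.9, 69.5 and 78.2 CPM on day 2 and at 51.1, 30.9 and 50.0 CPM on day 10. In the F/R/C series it stood at 62.6, 72.5 and 73.7 CPM on day 2 and 81.5, 83.4 and 64.3 CPM on day 10. On days 4, 6, 8 and 10 all 3 libraries with F/R/C were higher than all 3 of MyoD alone. No single day passed (log2 fold changes of 0.37, 0.67, 0.84 and 0.80 on days 4 to 10), and the average over 5 days was 0.53 ± 0.24 (adjusted p = 0.0571), under the minimum fold used for a call. Bulk iMPCs lay below all libraries of day 10 with F/R/C (-1.40, adjusted p = 0.0656), a difference that passed with DESeq2 (0.049) and with these groups alone (-1.45, 0.0161).

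Igf2bp3, the other mostly fetal member of the family, stood at 72.7, 70.7 and 65.8 CPM in MEFs and was highest on day 2, at 97.5, 125 and 109.7 CPM with MyoD alone and 100.1, 128 and 99.3 CPM with F/R/C. By day 10 it stood at 63.4, 55.6 and 58.8 CPM with MyoD alone and at 52.4, 67.6 and 52.4 CPM with F/R/C, and the groups overlapped. Bulk myoblasts stood at 15.7, 28.4 and 9.79 CPM and Pax7+ myoblasts at 24.6, 16.3 and 7.50 CPM. Bulk myoblasts were lower than MEFs by a log2 fold change of -1.95 ± 0.47 (adjusted p = 0.00106). Bulk iMPCs, at 15.8, 26.0 and 40.7 CPM, were also lower than MEFs (-1.34 ± 0.46, adjusted p = 0.0149), a call lost without bulk iMPC replicate 1 (-1.05, 0.0921).

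Unlike Igf2bp1, Igf2bp3 in bulk iMPCs overlapped the bulk myoblasts (0.61, adjusted p = 0.32). Pax7+ iMPCs stood at 65.4, 6.30 and 97.8 CPM, so that replicate 2 lay below every Pax7+ myoblast library and the others above. The called difference from Pax7+ myoblasts of 1.80 ± 0.47 (adjusted p = 0.00211) was lost without Pax7+ iMPC replicate 3 (1.15, 0.0527) and when only these groups were fitted (0.17). Against bulk iMPCs the Pax7+ iMPCs did not pass (1.04, adjusted p = 0.0614). That difference passed without Pax7+ iMPC replicate 2 (1.57, 3.54e-04), without bulk iMPC replicate 3 (1.43, 0.0263) and with DESeq2 (0.0388). Pax7+ iMPC replicate 2 was also the lowest of its group for Hmga1 and Igf2bp1.

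Igf2bp2, the family member found in adult muscle and other adult tissues, was the steadiest of the 7. MEFs stood at 169, 173 and 155 CPM, bulk iMPCs at 165, 122 and 154 CPM, bulk myoblasts at 94.5, 81.7 and 145 CPM, Pax7+ iMPCs at 153, 117 and 146 CPM and Pax7+ myoblasts at 125, 150.2 and 123 CPM. No comparison reached a log2 fold change of 1 in either direction. Smaller differences had an adjusted p under 0.05 in 6 comparisons. They were -0.63 in bulk myoblasts against MEFs (adjusted p = 9.75e-04), -0.37 between day 10 with F/R/C and MEFs (0.0364) and 0.46 in bulk iMPCs against bulk myoblasts (0.0186). For F/R/C they were 0.54 on day 4 (0.00862), 0.42 on day 6 (0.0347) and 0.29 averaged over days (4.03e-04). The average again takes libraries of different days as independent.

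Levels of the 3 Igf2bp genes were compared with each other per transcript length, in TPM (transcripts per M transcripts). Igf2bp2 made up 62.2% ± 1.74 (SD, n = 3) of the Igf2bp TPM in MEFs, 57.7% ± 5.88 on day 10 with F/R/C, 79.7% ± 7.13 in bulk iMPCs, 85.7% ± 9.66 in bulk myoblasts and 90.03% ± 5.52 in Pax7+ myoblasts. Igf2bp1 made up 17.1% ± 1.55 in MEFs, 22.8% ± 3.87 on day 10 with F/R/C, 9.90% ± 3.00 in bulk iMPCs and 2.42% ± 2.66 in bulk myoblasts. Igf2bp3 made up 20.7% ± 0.442 in MEFs, 10.4% ± 4.15 in bulk iMPCs and 11.9% ± 7.03 in bulk myoblasts. Igf2bp2 thus held the largest share in each of these groups. The division of Igf2bp2 among its own transcripts is not compared between groups. The transcript Igf2bp2-210 took 40.2% to 53.4% of the gene's reads in the 6 sorted and the 4 deepest libraries and at most 29.1% in the other 35. The deepest were the 3 bulk iMPC libraries and 1 bulk myoblast library, so cell type, depth and fragment setting cannot be told apart.

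**Figure D4:**
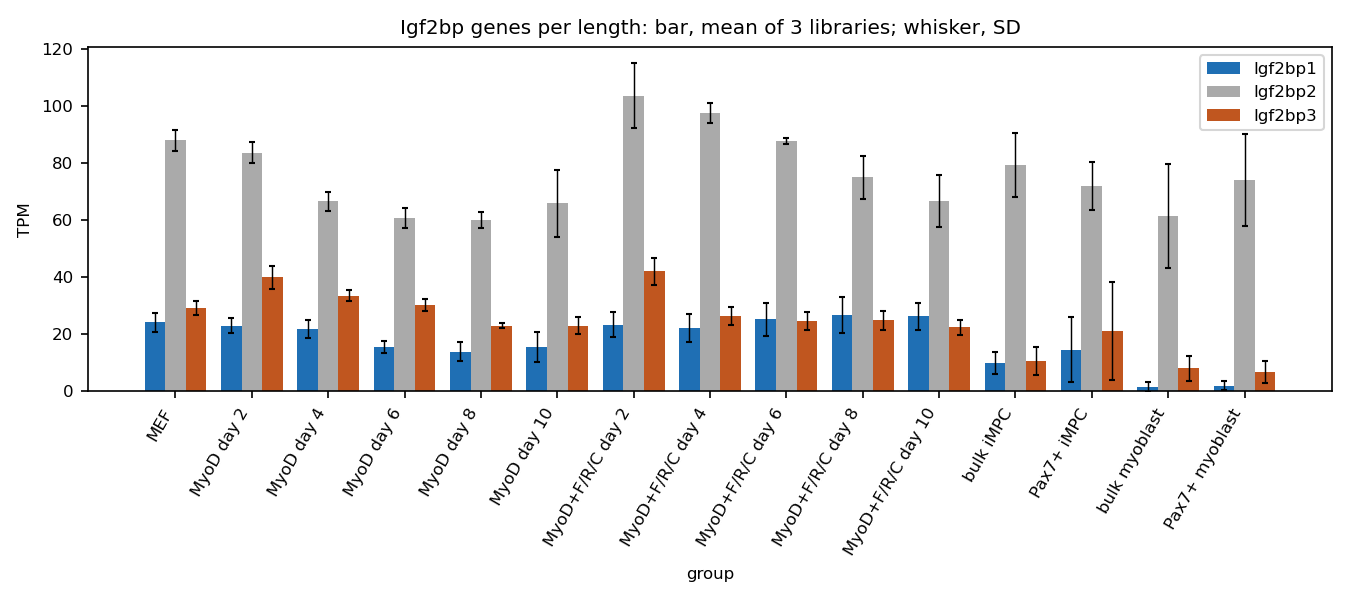
TPM of Igf2bp1, Igf2bp2 and Igf2bp3 by group. Bars are means of 3 libraries and whiskers SDs. Igf2bp2 is the tallest bar in every group, and the Igf2bp1 bars nearly vanish in the myoblast groups.

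Calls of the 7 genes by comparison were read against the share of all 17325 genes called at an adjusted p under 0.05 and a log2 fold change of at least 1 either way. Comparisons with MEFs share the 3 MEF libraries. Against MEFs, 1 of 7 was called after 2 days of MyoD alone (22.4% of all genes), 1 after 10 days (18.9%), 2 after 2 days with F/R/C (20.4%) and 3 after 10 days (34.8%). In bulk iMPCs 5 of 7 were called against MEFs (35.5%), 1 higher and 4 lower, and in bulk myoblasts 3 (29.2%), 1 higher and 2 lower. The median log2 fold change of the 7 in bulk iMPCs was -1.34, beside 0.08 over all genes.

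For the effect of F/R/C on the same day, edgeR called 0 of 7 on day 2 (4.93% of all genes), with 0 at an unadjusted p under 0.05 and 0 by DESeq2. On day 4 it also called 0 (13.2%), with 2 at an unadjusted p under 0.05 and 1 by DESeq2. Day 6 gave 1 (15.4%), day 8 gave 2 (18.7%), day 10 gave 2 (23.3%) and the average over days 2 (22.1%), all lower. For the change of the effect from day 2 to day 10 the count was 1 of 7 (6.01%). The counts from day 6 on lie near the share over all genes.

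Between the reference cells, 5 of 7 were called in bulk iMPCs against bulk myoblasts, beside 19.6% of all genes, with Lin28a and Igf2bp1 higher and Lin28b, Hmga1 and Hmga2 lower. In Pax7+ iMPCs against Pax7+ myoblasts 4 of 7 were called, beside 30% of all genes, with Igf2bp1 and Igf2bp3 higher and Lin28b and Hmga2 lower. Igf2bp1, Lin28b and Hmga2 thus differed in 1 direction in both comparisons, which share no library. Whether the sorted and bulk cells came from the same cultures or animals is not known. When edgeR fitted only the bulk groups, Hmga2 (adjusted p = 0.0822) and Igf2bp1 (0.074) did not pass. Pax7+ against bulk iMPCs gave 2, both lower (30.3%). Bulk iMPCs against day 10 with F/R/C gave 0 (9.57%), with 4 at an unadjusted p under 0.05 and 1 by DESeq2. Pax7+ against bulk myoblasts gave 0 (6.23%), with 2 at an unadjusted p under 0.05 and 0 by DESeq2.

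**Figure D5:**
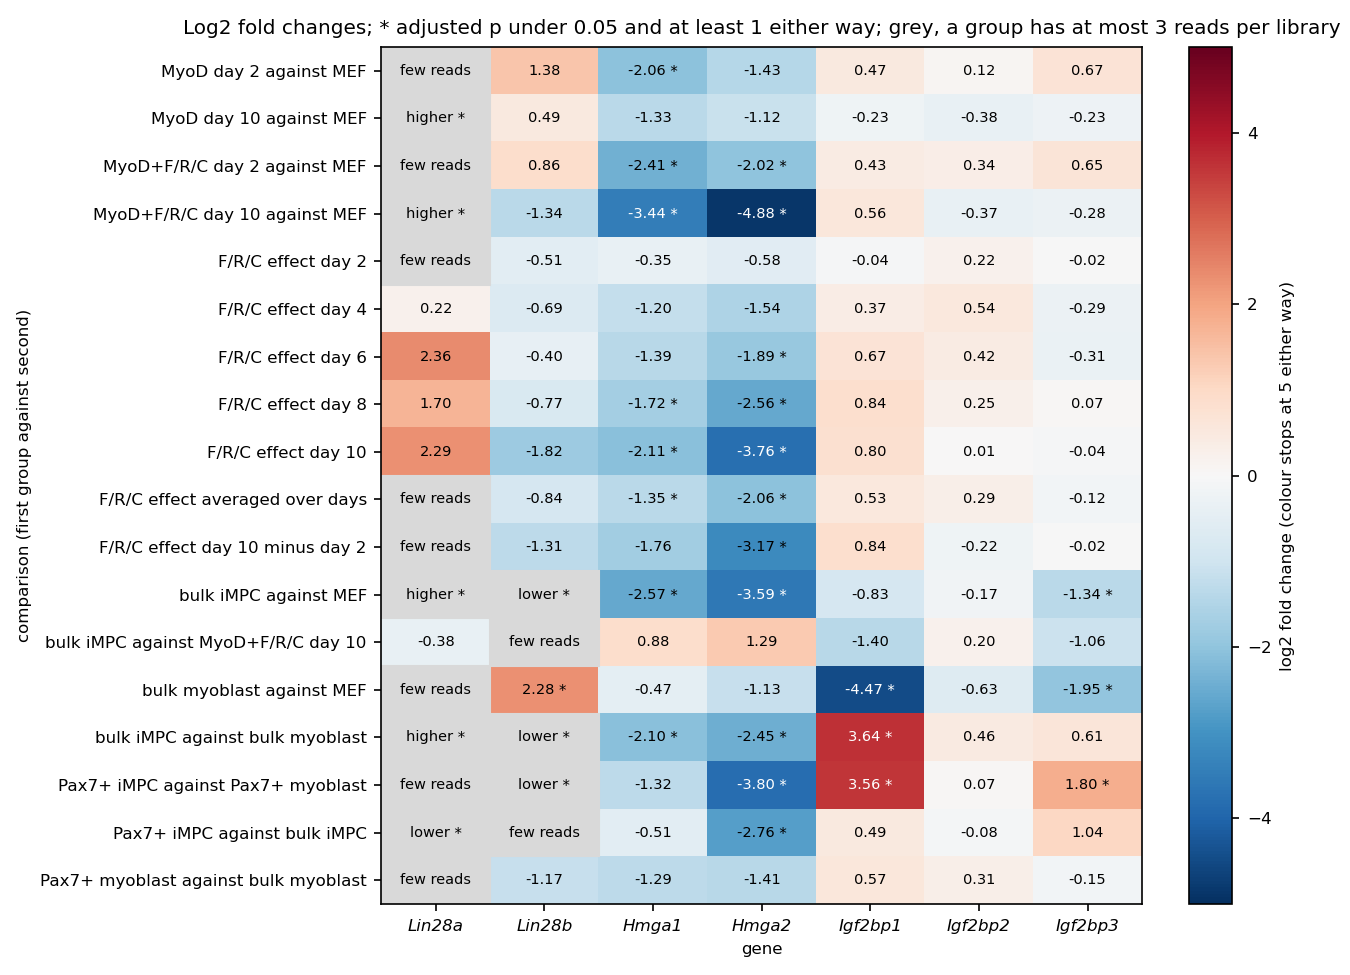
Log2 fold change of each of the 7 genes in the 18 comparisons, first group against second. Red is higher and blue lower in the first group, a star marks an adjusted p under 0.05 with a log2 fold change of at least 1, and grey cells hold no value because a group compared had at most 3 reads in every library. Hmga2 is starred in 11 comparisons and Igf2bp2 in 0.

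Other genes of the let-7 pathway were read from lists of 12 genes of let-7 biogenesis and LIN28 cofactors, 15 let-7 targets and 12 mRNAs bound by IGF2BP proteins. Among the biogenesis genes, 2 of 12 were higher and none lower after 10 days with F/R/C than in MEFs, with a list median of 0.35 beside 0.08 over all genes, where 34.8% of all genes were called. They were Ago2, the Argonaute that carries microRNAs (258 CPM in MEFs against 705.5 CPM, log2 fold change 1.45, adjusted p = 3.39e-05), and Tut4, a uridylyl transferase that works with LIN28A (24.1 against 62.6 CPM, 1.37, adjusted p = 2.7e-06). With MyoD alone on day 10 Ago2 stood at 533, 758 and 377 CPM, above every MEF library and overlapping the F/R/C libraries. Tut4 stood at 36.8, 40.8 and 28.3 CPM there, above every MEF library and below every F/R/C library. Ago2 and Tut4 were also the 2 called higher in bulk iMPCs, at 1.34 and 1.03, where 35.5% of all genes were called. Tut4 was higher in Pax7+ iMPCs than in Pax7+ myoblasts (1.31, adjusted p = 6.03e-06), as was Hnrnpa1, a protein that binds the let-7 precursor (1.33, adjusted p = 3.75e-05). Between bulk iMPCs and bulk myoblasts edgeR called 0 of 12, with 3 at an unadjusted p under 0.05 and 0 by DESeq2.

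Of 15 let-7 targets outside the 7 genes, 4 were higher and 1 lower after 10 days with F/R/C than in MEFs. That share is near the 34.8% of all genes called. Trim71, a fetal ubiquitin ligase and let-7 target, went from 0.747, 4.13 and 3.36 CPM in MEFs to 56.3, 56.7 and 45.1 CPM (log2 fold change 4.27, adjusted p = 2.1e-07). With MyoD alone on that day it stood at 4.58, 7.73 and 3.48 CPM, below every F/R/C library. Trim71 holds 4 seed matches, as many as Hmga2, and all 4 of its own are followed by an A. The F/R/C effect on Trim71 was 1.01 on day 2 (adjusted p = 0.22) and 1.88 on day 4. It was 2.68 on day 6, 3.23 on day 8 and 3.33 on day 10 (1.53e-05). Let-7 was not measured, and its part in the levels of Trim71 and Hmga2 was not tested.

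Mycn, a growth-promoting transcription factor, stood at 0.703, 0.882 and 1.08 CPM in MEFs and at 12.9, 21.1 and 8.93 CPM after 10 days with F/R/C (log2 fold change 4.01, adjusted p = 2.47e-05). Ccnd2, the cell cycle protein cyclin D2, fell from 747, 1527 and 1652 CPM to 237, 111 and 185 CPM (-2.88, adjusted p = 4.51e-06). Arid3b, a DNA-binding protein, was the next by size among those called (1.17, adjusted p = 0.0203), and its F/R/C libraries of 9.85, 14.3 and 33.2 CPM overlapped the MEF libraries of 9.93, 8.22 and 7.29 CPM. After 10 days of MyoD alone Arid3b stood at 13.3, 20.1 and 13.4 CPM, above every MEF library. The effect of F/R/C on day 10 gave 3 of 15 higher and 1 lower, near the 23.3% of all genes called.

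Between iMPCs and myoblasts the same let-7 targets stood apart in part. Trim71 was higher in bulk iMPCs (29.9, 17.3 and 37.8 CPM) than in bulk myoblasts (1.75, 4.43 and 13.8 CPM), by 2.08 on the log2 scale (adjusted p = 0.00176). In the sorted cells it stood at 64.5, 37.4 and 28.0 CPM against 2.65, 1.80 and 1.47 CPM (4.44, adjusted p = 1.74e-07). Mycn stood at 1.78, 1.61 and 4.14 CPM in bulk iMPCs and had 0, 13 and 0 reads in bulk myoblasts. It stood at 7.67, 17.9 and 31.7 CPM in Pax7+ iMPCs and had 4, 4 and 0 reads in Pax7+ myoblasts. Ccnd2 was lower in Pax7+ iMPCs, at 19.5, 67.6 and 20.1 CPM against 703, 393 and 511 CPM (-3.91, adjusted p = 1.07e-07). In all, 3 of 15 were higher and 1 lower between the bulk cells, beside 19.6% of all genes called, and 6 higher and 3 lower between the sorted cells, beside 30%.

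Of 12 mRNAs known to be bound by IGF2BP proteins, 2 were higher and 3 lower after 10 days with F/R/C than in MEFs, again beside 34.8% of all genes called. Igf2, the fetal growth factor mRNA after which the family is named, went from 345, 272 and 56.3 CPM to 8891, 8541 and 9926 CPM (log2 fold change 5.34, adjusted p = 1.19e-07). H19, the non-coding RNA made beside Igf2, went from 541, 69.98 and 109 CPM to 12580, 9778 and 12680 CPM (5.60, adjusted p = 2.76e-08). Both also rose with MyoD alone, by 4.05 and 5.24 on the log2 scale on day 10. Ptgs2, a prostaglandin synthase (-3.39), and Cd44, a surface glycoprotein (-2.49), fell with F/R/C. In bulk myoblasts, where Igf2bp1 was lowest, Igf2 stood at 4355, 2511 and 289 CPM and H19 at 14580, 11460 and 2202 CPM, above MEFs for H19 in all 3 libraries and for Igf2 in 2.

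Transcripts that host let-7 genes give an indirect view, since the microRNAs themselves were not counted. Of 4 host transcripts 2 were tested. Huwe1, which hosts let-7f-2 and miR-98, was called in none of the 18 comparisons, with group means of 341 CPM in MEFs and 330.1 CPM after 10 days with F/R/C (log2 fold change -0.05, adjusted p = 0.833). Mir99ahg, which hosts let-7c and miR-99a, stood at 0.879, 0.279 and 0.127 CPM in MEFs and at 1.55, 2.92 and 2.65 CPM after 10 days with F/R/C (log2 fold change 2.41, adjusted p = 0.00233). It was also higher than in MEFs after 10 days of MyoD alone (2.29) and in bulk iMPCs (2.38). Bulk myoblasts held 0.538, 5.98 and 0.364 CPM, so 2 of 3 libraries lay within the MEF range and replicate 2 lay above it. In Pax7+ iMPCs it was lower than in Pax7+ myoblasts (-1.51, adjusted p = 0.0392).

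Genes of proliferation were counted because HMGA and IGF2BP proteins are found in dividing cells. F/R/C raised 9 of 12 on day 6, 11 on day 8 and 8 on day 10, where 15.4%, 18.7% and 23.3% of all genes were called in either direction. Hmga2 was called lower on the same days. The summed level of the 12 genes on day 10 was 521, 60.3 and 478 CPM with MyoD alone and 1289.5, 1094 and 585 CPM with F/R/C. Replicate 2 of MyoD alone was the lowest in this sum and also in Hmga1 and Hmga2. In Pax7+ iMPCs the sum was 2295 to 2868 CPM, the highest of the 15 groups, and 6 of 12 were higher than in Pax7+ myoblasts (30% of all genes called), while Hmga2 there was the lowest of the 15 groups.

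As a description, the genes whose group means over the 15 groups were most like those of each of the 7 are given by Pearson's r of log2(CPM + 1), with no test. The points share their libraries within a time course. For Hmga2 they were Tes (0.985) and S100a4 (0.982), which are a focal adhesion protein and a calcium-binding protein of fibroblasts. For Hmga1 they were Clic1 (0.966) and Ap3s1 (0.956), for Igf2bp1 Igfbp4 (0.976) and Grb10 (0.957), and for Igf2bp3 Pcdhga8 (0.976) and Csrp1 (0.968). For Lin28a they were Cyp11a1 (0.973) and Elf3 (0.965), for Lin28b Syt14 (0.961) and Ap1b1 (0.943), and for Igf2bp2 Gm10125 (0.858) and Rab3c (0.855). Among the 7 themselves Igf2bp1 and Igf2bp3 had r = 0.883 and Hmga1 and Hmga2 r = 0.858, whereas Lin28a and Lin28b had r = -0.362.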

How the data were processed

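Poly-A RNA was sequenced in 45 libraries. The authors deposited estimated counts and TPM per transcript from kallisto (version 0.44), after bcl2fastq 2.19 and Trimmomatic 0.36, with build GRCm38.p6 and edgeR 3.28 also named, per the submitters' processing notes. The deposited estimated counts were summed per gene with GENCODE release M21 (121104 of 121843 transcripts matched, 99.4% to 99.8% of reads per library) and rounded, and the deposited TPM were summed likewise.

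All 45 libraries entered 1 edgeR fit (version 4.0.16, R 4.3.3, quasi-likelihood test, TMM scaling, filterByExpr, 30 residual degrees of freedom). Calls required an adjusted p (Benjamini-Hochberg, over 17325 genes) under 0.05 and a log2 fold change of at least 1 either way. CPM are TMM-scaled. In simulated data for bulk iMPCs against bulk myoblasts, over 17325 genes, 132 of 200 genes changed 4-fold were called (66%), with 6 false calls. A fixed floor of 3 reads stood in for a count of 0, and depth set its value in CPM. Alternatives were RLE factors, no filter, no minimum fold, DESeq2 1.42.0, only the groups compared, a replicate block, Hmga1 summed with its copies, and each library left out in turn.

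The members and lists were chosen with earlier results of these data known. From each list up to 4 called genes were named by size of change, and for each member the 2 genes most correlated with it. For the F/R/C effect on days 2, 4 and 6 the deviations of every pair of same-numbered libraries correlated above 0.1 (mean r 0.364, 0.297 and 0.295). The main tests did not use this pairing. On days 8 and 10 every pair was positive too, with mean r of 0.18 and 0.191. The replicate number entered only the alternative fit with a block. The labels do not say what a number marks, but in MEFs and the time course the libraries numbered 3 shared high Y-linked and low Xist levels.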

Additional observations from a re-analysis of the deposited data

Results flagged for a closer look

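The effect of F/R/C on Hmga2 differed between days by a test of the difference itself: the log2 effect on day 10 minus that on day 2 was -3.17 ± 0.85 (SE), with adjusted p = 0.0209 by edgeR's quasi-likelihood test. All 3 libraries with F/R/C lay below all 3 of MyoD alone on day 10, while on day 2 the groups overlapped. The difference between days did not pass without MyoD day 2 replicate 2 (-2.90, adjusted p = 0.0671). Nor did it without MyoD day 10 replicate 3 (-2.28, 0.0959) or F/R/C day 10 replicate 2 (-2.94, 0.0759).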

How the results depend on the processing

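Of 1724 values of the 7 genes recomputed under the alternatives, 1661 stayed on the same side of the threshold, 34 no longer passed and 29 newly passed. The sign changed in 48, which passed under neither setting (adjusted p of 0.391 or more under the alternative), and in 0 values that passed. RLE factors and the summed Hmga1 copies changed none. Leaving out 1 library gave 27 lost and 9 new calls among 966 values.

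The shares of all genes called given above are those of the main fit. The counts in this section have no such share beside them and cannot be read against one. The count of the 7 genes called moved by over 1.5 times as follows. With the replicate number as a block it was 2 for MyoD day 2 against MEFs, 2 for MyoD day 10 against MEFs, 1 for the F/R/C effect on day 4 and 1 for bulk iMPCs against day 10 with F/R/C. The block lost no call and added 5, the fifth being Hmga1 between the sorted cells, and it changed no other. For bulk iMPCs against day 10 with F/R/C the added call was Hmga2 (1.52, adjusted p = 0.0405). The mean correlation of same-numbered libraries there was -0.0397, and it was 0.0423 between the sorted cells. For MyoD days 2 and 10 against MEFs it was 0.00124 and 0.0273. The number thus showed no pairing in these comparisons. The correlation of same-numbered libraries was over 0.1 in every pair only for the F/R/C effect on days 2, 4 and 6. On days 8 and 10 the lowest pair had 0.0791 and 0.0617. In MEFs and the time course the libraries numbered 3 also share high Y-linked and low Xist levels. When the fit held just the compared groups it was 2 for MyoD day 2 and 0 for MyoD day 10 against MEFs, 2 for the F/R/C effect on day 4, 2 on day 6 and 1 on day 8, 1 for bulk iMPCs against day 10 with F/R/C, 2 for bulk iMPCs against bulk myoblasts and 2 between the sorted cells. DESeq2 gave 2 for MyoD day 2 against MEFs, 1 for the F/R/C effect on day 4 and 1 for bulk iMPCs against day 10 with F/R/C. With no filter on low counts it was 0 for MyoD day 10 against MEFs and 1 for the F/R/C effect on day 8. With no minimum fold it was 1 for the F/R/C effect on day 4 and 2 on day 6. The cause was not tested, beyond fewer samples in the smaller fits.

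Leaving out 1 library in turn, the count ranged from 0 to 1 for MyoD day 2, 0 to 3 for MyoD day 10 and 1 to 2 for day 2 with F/R/C, all against MEFs. For the F/R/C effect it ranged from 0 to 1 on day 6, 1 to 2 on day 8, 1 to 2 on day 10 and 0 to 1 for day 10 minus day 2. It ranged from 0 to 1 for bulk iMPCs against day 10 with F/R/C and for Pax7+ against bulk myoblasts. Depth limits Lin28a most, with at most 3 reads in 23 of 45 libraries.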
